A study of Homo sapiens with 74 samples.

Results

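The promoters of 10 immediate early genes were examined for peaks of zinc-finger proteins (ZFPs). The genes were FOS, FOSB, JUN, JUNB, JUND, EGR1, IER2, IER5, ATF3 and MYC, out of 20020 protein-coding genes in the annotation (GENCODE 44, genome build hg38). They were given as a list, chosen with earlier results of these data known. A peak was counted for a gene when its nearest edge lay within 1 kb of any annotated transcription start site (TSS) of that gene. A gene with such a peak is said to be called in that peak list. Of the 10 genes, 9 were called in at least 1 list, where 55.8% of protein-coding genes were called, and JUNB was not called in any.

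The peaks came from Cut&Run, in which an antibody recruits a nuclease that releases the DNA at sites where a tagged protein sits, directly or through other proteins. HEK293T, a human embryonic kidney cell line, had been transfected with a plasmid that carried the open reading frame of 1 ZFP with a C-terminal V5 epitope under the EF1-alpha promoter, and chromatin was probed with a V5 antibody after 48 h without crosslinking. Un-transfected HEK293T cells taken through the same V5 immunoprecipitation formed the mock IP control. There were 2 mock IP libraries, so lists of different ZFPs shared a control, and which library served each list is not given. For each of 36 ZFPs there were 2 replicates, each from its own well, which gave 72 lists with 15 to 8702 peaks each (median 631). The paper states that 36 ZFPs passed its quality control, but these are not to be equated with the 36 used here. It lists no Cut&Run target count for 6 of the latter, CPSF4, MBNL1, SNRPC, TRIM55, ZC3H3 and ZMAT5. All cells were of 1 line and each ZFP was an ectopic, tagged copy, so the peaks describe expressed transgenes and not the endogenous proteins. Transfection itself was not matched in the control, which was not transfected. No stimulus of immediate early genes is named in the labels.

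Immediate early genes are transcribed within minutes of a growth or stress signal, without new protein synthesis. Their promoters are held ready by factors that are already on the DNA, chiefly serum response factor (SRF) with its ETS-family partners at CArG boxes and CREB-family proteins at cyclic AMP response elements (CREs). Most of their products are transcription factors: FOS and JUN proteins pair to form the AP-1 complex, ATF3 is a stress-induced CREB-family relative, and EGR1 and MYC regulate growth programs.

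Sequences are shown for EGR1, which had the most peaks, and for FOS, which has a CArG box upstream, and JUND, which has a full CRE. They were read from hg38 along the strand of each gene. Capitals in the EGR1 stretch (chr5:138465039-138465338, plus strand) mark CArG boxes, the ETS core CCGGAA and the EGR site GCGNGGGCG, on either strand.
EGR1: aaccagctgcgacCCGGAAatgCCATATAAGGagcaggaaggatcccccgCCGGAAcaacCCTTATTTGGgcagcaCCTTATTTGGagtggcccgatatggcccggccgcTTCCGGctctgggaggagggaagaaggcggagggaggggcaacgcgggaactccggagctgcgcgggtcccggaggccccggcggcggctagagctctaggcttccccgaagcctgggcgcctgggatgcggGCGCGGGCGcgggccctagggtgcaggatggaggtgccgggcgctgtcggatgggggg
Capitals in the FOS stretch (chr14:75278498-75278797, plus strand) mark a CArG box and the CRE core TGACG on either strand.
FOS: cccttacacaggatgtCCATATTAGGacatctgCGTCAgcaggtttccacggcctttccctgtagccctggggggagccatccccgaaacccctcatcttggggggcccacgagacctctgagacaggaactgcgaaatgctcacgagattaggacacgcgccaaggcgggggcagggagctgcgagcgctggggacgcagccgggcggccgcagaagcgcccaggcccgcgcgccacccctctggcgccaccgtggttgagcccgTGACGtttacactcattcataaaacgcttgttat
Capitals in the JUND stretch (chr19:18281623-18281872, minus strand) mark the full CRE TGACGTCA, which contains that core, and a further core.
JUND: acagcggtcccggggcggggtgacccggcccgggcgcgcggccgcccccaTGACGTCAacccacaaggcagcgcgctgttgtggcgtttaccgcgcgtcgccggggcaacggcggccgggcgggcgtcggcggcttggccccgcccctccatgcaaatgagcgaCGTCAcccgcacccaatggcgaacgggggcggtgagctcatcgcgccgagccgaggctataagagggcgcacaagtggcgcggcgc

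In all, 56 peaks lay within 1 kb of a TSS of the 9 called genes. They fell in 18 lists of 12 ZFPs, and the other 24 ZFPs had no such peak in either replicate. Of the 18 lists, 11 were replicate 1 and 7 were replicate 2. The calls made 39 pairs of a gene and a ZFP. In 10 pairs the gene was called in both replicates, in 24 it was called in replicate 1 only and in 5 in replicate 2 only. Most calls were not repeated in the second culture of the same ZFP, as over all protein-coding genes. The repeated share was 25.6% of pairs for the 10 genes and 16.5% for all protein-coding genes, a description with no test. The peaks of both replicates overlapped by at least 1 bp in 8 of the 10 repeated pairs. These 10 pairs involved 5 genes, FOS, JUND, EGR1, IER5 and ATF3, where 16.7% of protein-coding genes were called in both replicates of at least 1 ZFP. They involved 4 ZFPs, namely APEX2, a nuclease of DNA repair, G2E3, a ubiquitin ligase, GIN1, a protein related to retroelement integrases, and ZNF22, a C2H2 zinc-finger protein.

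**Figure D1:**
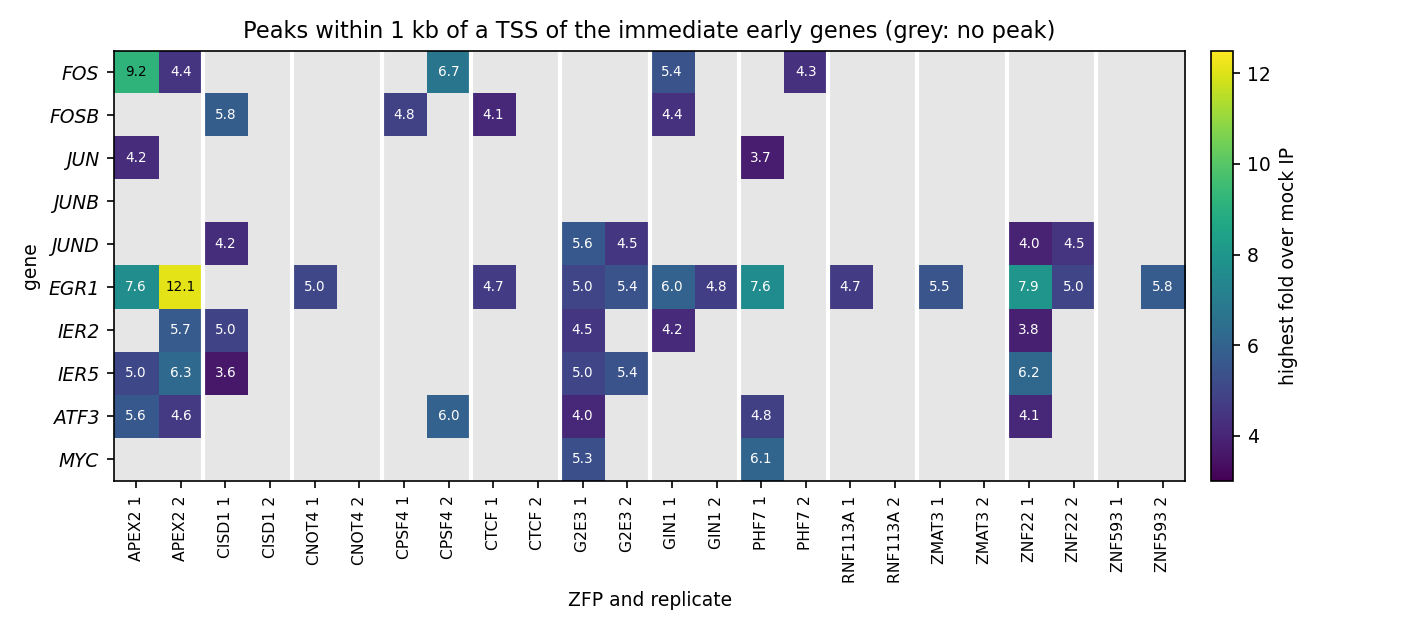
Highest fold over the mock IP of a peak within 1 kb of a TSS, for the 10 immediate early genes (rows) in both replicates of the 12 ZFPs with such a peak (columns). Grey squares have no peak. EGR1 has a value in 14 lists, JUNB in none, and most filled squares of the other genes are in replicate 1.

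Peak height was given by the authors as a fold. It compares the signal at the summit (the highest point of the peak) with a background that the peak caller estimated with the mock IP as control. It need not be a ratio to the mock IP signal at that same base. The 56 folds ran from 3.40 to 12.1 with a median of 4.96, close to the median of 5.08 over all 43014 peaks within 1 kb of a protein-coding TSS. Because lists differ in length, each fold was also ranked among the promoter peaks of its own list. The median of these percentiles was 47.9, with 29 of the 56 peaks below the 50th percentile and 6 in the top 10%. As a set these peaks stood near the middle of their lists. The 6 high ones were APEX2 replicate 1 and CPSF4 replicate 2 at FOS, and both replicates of APEX2, PHF7 replicate 1 and ZNF22 replicate 1 at EGR1. Peak widths ran from 143 to 1227 bp with a median of 249.5 bp.

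EGR1 (chr5:138465479-138469303, plus strand) codes for a zinc-finger transcription factor that is itself among the fastest growth factor targets. It had 15 peaks in 14 lists of 10 ZFPs, more ZFPs than any other of the 10 genes. Lists of different ZFPs shared mock IP libraries, so these calls are not independent of each other. As many ZFPs or more were found at 2.32% of protein-coding genes, and EGR1 ranked 286 of them. It was called in both replicates of 4 ZFPs, a number reached or passed by 2.04% of protein-coding genes.

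APEX2 gave the highest fold of any of the 56 peaks. At EGR1 its fold was 7.64 in replicate 1 and 12.1 in replicate 2, with summits 281 and 247 bp upstream of the TSS. The replicate 2 peak ranked 8 of 3031 promoter peaks in its list and was 1227 bp wide, reaching from 738 bp upstream to 488 bp downstream of the TSS. In replicate 1 the rank was 118 of 3604, so both lists placed EGR1 among the highest APEX2 promoter peaks. The GIN1 fold at EGR1 was 6.0 in replicate 1 and 4.76 in replicate 2. The summits, 278 and 262 bp upstream, were the closest pair of any gene and ZFP in which both replicates were called. ZNF22 had a fold of 7.94 in replicate 1, with its summit 326 bp upstream, and 4.98 in replicate 2, with its summit 721 bp upstream. G2E3 had 2 peaks in replicate 1, of fold 4.97 at 153 bp upstream and 3.45 at 693 bp upstream, and a peak of fold 5.42 at 570 bp upstream in replicate 2. In these ZFPs the peaks overlapped but the summits lay further apart than in APEX2 and GIN1.

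A further 6 ZFPs had an EGR1 peak in 1 replicate only. PHF7, a histone ubiquitin ligase, had the highest of these folds, 7.62 in replicate 1 with the summit 267 bp upstream. In replicate 2 of ZNF593, a ribosome biogenesis factor, the fold was 5.76 at 191 bp upstream. ZMAT3, an RNA-binding p53 target, reached 5.50 in replicate 1 at 157 bp upstream. The remaining folds were lower. CNOT4, a ubiquitin ligase of the CCR4-NOT complex, had a fold of 5.02 at 273 bp upstream. RNF113A, a spliceosome component, had 4.70 at 568 bp upstream, and CTCF, the insulator protein, had 4.68 at 466 bp upstream, all in replicate 1. The CNOT4 list was short, with 292 peaks and 0.285% of protein-coding genes called, and EGR1 was the only immediate early gene in it.

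All 15 EGR1 summits lay upstream of the TSS, in intergenic sequence, between 721 and 153 bp away. The peaks together spanned chr5:138464528-138465967. The stretch chr5:138465188-138465320, from 291 to 159 bp upstream, was covered by 11 of the 15 peaks, more than any other base near the gene. An EGR site at 198 bp upstream, the one in capitals near the 3′ end of the EGR1 stretch above, lay in it. The CArG boxes lay to either side. Those that begin 418, 380 and 364 bp upstream were covered by 4, 4 and 5 peaks, and those at 105 and 83 bp upstream by 3 and 2 peaks. The ETS cores in capitals above, which begin 427, 390 and 330 bp upstream, were covered by 4, 4 and 9 peaks. Further EGR sites at 619 and 613 bp upstream, which overlap each other, were covered by 7 peaks each. These are positions of letters within peaks and do not show which base a ZFP touched.

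**Figure D2:**
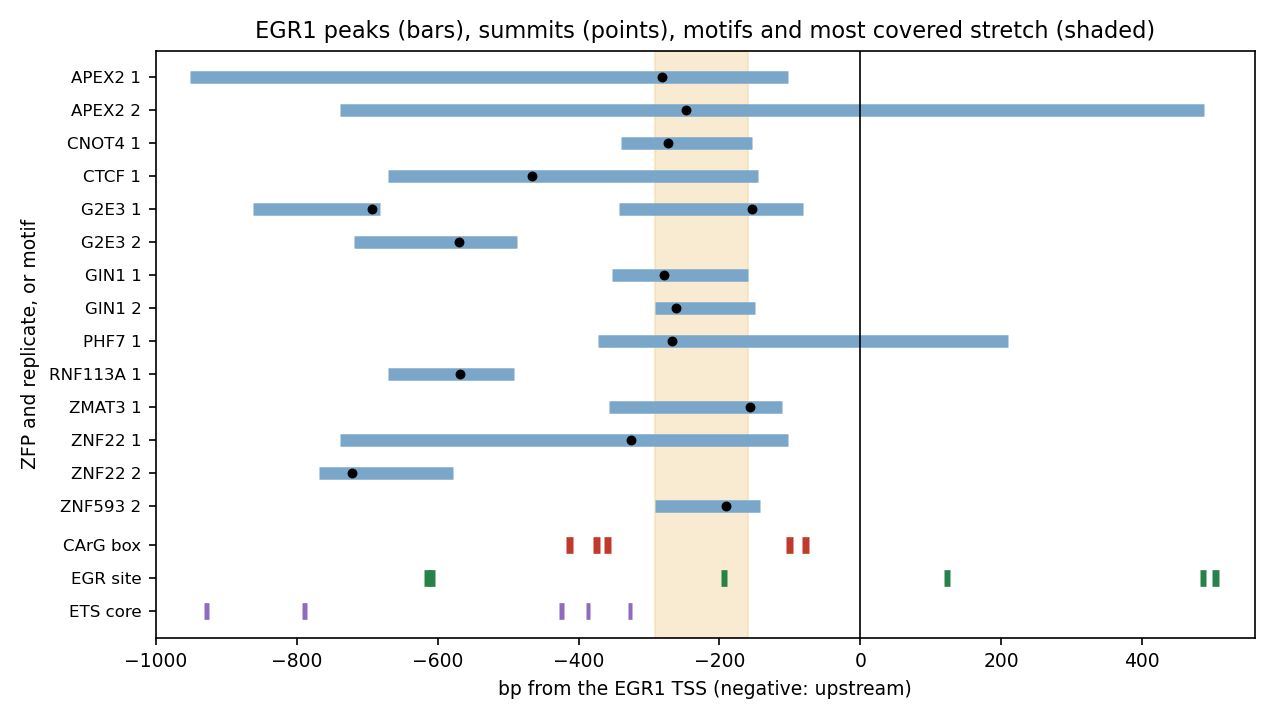
EGR1 peaks by ZFP and replicate (bars) with their summits (points), in bp from the EGR1 TSS, above the positions of CArG boxes, EGR sites and ETS cores within 1 kb. The shaded stretch, 291 to 159 bp upstream, is covered by 11 of the 15 peaks, and every summit lies upstream.

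FOS (chr14:75278826-75282230, plus strand), the AP-1 subunit after which the family is named, had 5 peaks in 5 lists of 4 ZFPs. APEX2 was the only ZFP with FOS called in both replicates. Its fold was 9.19 in replicate 1, rank 36 of 3604 promoter peaks, and 4.43 in replicate 2, at percentile 20.2 of its list. The replicate 1 summit lay 125 bp upstream of the main TSS (that of the representative transcript) and the replicate 2 summit 243 bp upstream. The peaks overlapped, but their ranks stood at opposite ends of the lists. CPSF4, a polyadenylation factor, had a fold of 6.68 at 141 bp upstream in replicate 2, percentile 93.3 of that list. CPSF4 is among 6 of the 36 ZFPs for which the study lists no Cut&Run target genes, and without those 6, FOS was called for 3 ZFPs, FOSB for 3 and ATF3 for 4. GIN1 replicate 1 had 5.43 at 248 bp upstream. These 4 peaks shared chr14:75278556-75278741, from 272 to 87 bp upstream. The CArG box that begins 314 bp upstream was covered by 1 of them, the wide APEX2 replicate 1 peak. The fifth peak, of PHF7 replicate 2, differed in place, with a fold of 4.35 and its summit 283 bp downstream in a coding exon.

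FOSB (chr19:45467995-45475179, plus strand), a FOS paralog with the same pairing partners, was called in replicate 1 of 4 ZFPs and in no replicate 2. Its folds were 5.81 for CISD1, an iron-sulfur protein of the outer mitochondrial membrane, 4.84 for CPSF4, 4.37 for GIN1 and 4.10 for CTCF. None of these peaks lay at the main promoter. The summits were 1207 to 1708 bp downstream of the main TSS, in an intron of FOSB and of an overlapping ERCC1 transcript, and counted only because FOSB has TSSs of shorter transcripts nearby. All 4 peaks shared the short stretch chr19:45469398-45469421. The CArG box and CRE of FOSB, 274 and 325 bp upstream of the main TSS, were covered by no peak.

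JUN (chr1:58776845-58784048, minus strand), the founding partner of FOS, had 3 peaks in replicate 1 of 2 ZFPs. APEX2 had a fold of 4.21 with the summit 254 bp downstream, in the UTR. PHF7 had a fold of 3.74 at 288 bp upstream and one of 3.40 at 940 bp downstream, the lowest of the 56 folds. Those PHF7 folds stood at percentiles 1.94 and 0.569 of a list of 4392 promoter peaks, so they were among the weakest promoter peaks called there.

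JUNB (chr19:12791486-12793315, plus strand), the AP-1 subunit often described as a brake on JUN, had no peak within 1 kb in any of the 72 lists. The nearest peak lay 2056 bp from its TSS, in G2E3 replicate 2 with a fold of 5.70, in an intron of a HOOK2 transcript. Between 1 and 10 kb there were 10 peaks in 7 lists of 7 ZFPs, and the next gene by number of peaks, IER2, had 9 in 9 lists of 7 ZFPs. The lists therefore held peaks within 10 kb of JUNB but not within 1 kb of its start. No such count was made over all protein-coding genes, so this cannot be read as particular to JUNB.

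JUND (chr19:18279694-18281622, minus strand), the JUN protein that most cells make without a stimulus, had 6 peaks in 5 lists of 3 ZFPs. G2E3 called it in both replicates with overlapping peaks, of fold 5.62 at 71 bp downstream in replicate 1 and 4.52 at 22 bp downstream in replicate 2. These were the summits closest to a main TSS in the whole set. ZNF22 also called JUND in both replicates, but at different places, with a fold of 3.95 at 1077 bp downstream in replicate 1 and 4.47 at 165 bp upstream in replicate 2. CISD1 replicate 1 had folds of 4.24 and 4.03 at 1133 and 259 bp downstream, in the coding exon. The CRE in capitals in the JUND sequence above, 200 bp upstream, was covered by 2 peaks, those of replicate 2 of G2E3 and ZNF22.

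ATF3 (chr1:212565334-212620777, plus strand), the stress-induced member, had 8 peaks in 6 lists of 5 ZFPs. APEX2 called it in both replicates, with overlapping peaks of fold 5.63 at 171 bp upstream in replicate 1 and 4.63 at 231 bp upstream in replicate 2. Replicate 1 had further peaks of fold 4.31 at 323 bp and 5.18 at 1079 bp downstream. The highest ATF3 fold was 5.97, in CPSF4 replicate 2 at 310 bp upstream, percentile 83.9 of its list. PHF7, ZNF22 and G2E3 had folds of 4.8, 4.06 and 4.04 in replicate 1, at 232 bp downstream, 380 bp upstream and 506 bp downstream. The stretch chr1:212608525-212608603, from 236 to 158 bp upstream, was shared by 5 of the 8 peaks. The main TSS of ATF3 lies within the gene, and a longer transcript starts upstream of it, so these peaks were also in an intron of that transcript.

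MYC (chr8:127735434-127742951, plus strand), a regulator of growth and metabolism, was called in replicate 1 of G2E3 and of PHF7 and in no replicate 2. The folds were 5.33 and 6.10, with summits 2073 and 1847 bp downstream of the main TSS, in a coding exon and an intron. Both peaks shared chr8:127738254-127738344 and counted through internal TSSs. As at FOSB, no peak lay within 1 kb of the main TSS.

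IER5 (chr1:181088700-181092900, plus strand), a nuclear protein of the growth and heat response, had 6 peaks in 6 lists of 4 ZFPs. APEX2 called it in both replicates with overlapping peaks just downstream of the TSS, of fold 5.05 at 186 bp and 6.26 at 331 bp. G2E3 also called it in both, with folds of 4.97 at 866 bp and 5.42 at 650 bp downstream, but those peaks did not overlap. The G2E3 folds were the same values as at EGR1, and such ties were common in these lists. In replicate 1 of G2E3, 22 of 3482 peaks had the fold 4.97, and in replicate 2, 11 of 4159 had 5.42. ZNF22 replicate 1 had 6.17 at 157 bp upstream, and CISD1 replicate 1 had 3.63 at 875 bp downstream. The CISD1 peak was the furthest from a TSS that still counted, with its edge 862 bp away, and the nearest peak outside the limit was 1001 bp from JUN, in PHF7 replicate 1 with a fold of 3.82.

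IER2 (chr19:13150411-13154911, plus strand), a small nuclear regulator, had 7 peaks in 5 lists of 5 ZFPs, and no ZFP called it in both replicates. The peaks fell into an upstream and a downstream group. Upstream summits were at 578 bp in APEX2 replicate 2 with a fold of 5.73, at 224 bp in CISD1 replicate 1 with 4.96, at 385 bp in G2E3 replicate 1 with 4.50 and at 822 bp in ZNF22 replicate 1 with 3.83. All 4 lay in STX10, a neighbouring gene that codes for a membrane fusion protein, and within 1 kb of its TSS too, so that they could not be assigned to IER2 alone. They were the only ones of the 56 peaks near the TSS of another protein-coding gene. Downstream summits, in an intron of IER2, were at 1458 bp in APEX2 replicate 2 with a fold of 5.64, at 1189 bp in CISD1 replicate 1 with 4.44 and at 1222 bp in GIN1 replicate 1 with 4.15. These downstream peaks lay more than 1 kb from the main TSS and counted only through an internal TSS. With the main TSS only, IER2 was called for 4 ZFPs.

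**Figure D3:**
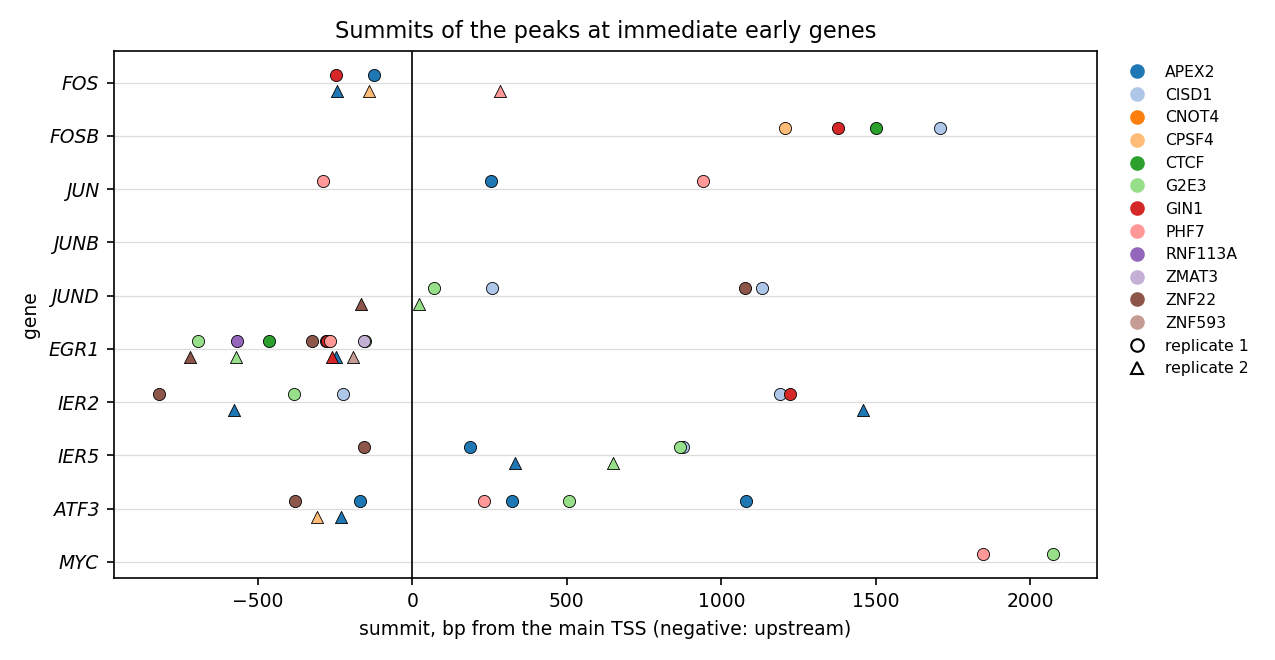
Summit positions of the 56 peaks by gene, in bp from the main TSS, with the ZFP given by colour and the replicate by symbol. Summits of EGR1 are all upstream, those of FOSB and MYC are all more than 1 kb downstream, and JUNB has none.

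Taking the genes together, 30 of the 56 summits lay upstream of the main TSS and 26 downstream, or 53.6% upstream, where it was 48.9% over all protein-coding genes. Within 500 bp of the main TSS lay 33 summits, 58.9%, where the share was 66.9% over all genes. The median summit was 147 bp upstream of the main TSS, against 13.5 bp downstream over all genes. EGR1 alone gave 15 of the upstream summits. When only the main TSS was used, 7 genes were called in at least 1 list, where 50.1% of protein-coding genes were, and FOSB and MYC dropped out. The same 5 genes had calls in both replicates of at least 1 ZFP, where the share was 14.1%.

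The ZFPs differed in which genes they called. APEX2 called 4 of the 10 genes in both replicates, FOS, EGR1, IER5 and ATF3, where 8.34% of protein-coding genes were called in both. G2E3 called JUND, EGR1 and IER5 in both, where the share was 5.16%. GIN1 called EGR1 in both, where the share was 2.38%, and ZNF22 called JUND and EGR1, where it was 4.81%. CISD1, whose replicate 1 had the longest list and called 25.4% of protein-coding genes, had FOSB, JUND, IER2 and IER5 in that replicate, none of the 10 genes in replicate 2, and no EGR1 peak. PHF7 replicate 1, which called 22.9% of protein-coding genes, had JUN, EGR1, ATF3 and MYC, and replicate 2 had FOS only. CTCF replicate 1, with 10.9% of genes called, had FOSB and EGR1. No gene of the set was repeated across replicates in CISD1, PHF7 or CTCF, where the shares of protein-coding genes called in both were 4.83%, 1.13% and 3.5%, so that 0 of 10 is near the background.

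List length moved with these calls, as it did with those of all genes. In 15 lists more than 1000 protein-coding genes were called. Of these, 12 held an immediate early gene, and together they held 42 of the 49 calls of a gene in a list, 85.7%, near the 82.1% of calls of all protein-coding genes that the 15 lists held. Of the 57 shorter lists, 6 held one. Over the 72 lists the number of immediate early genes called and the number of all genes called had a Spearman rho of 0.687 and a Pearson r of 0.887, a description in which both counts come from the same list. The paper's methods give only an approximate depth common to all libraries and no total per library, and the part of depth in these calls was not tested.

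**Figure D4:**
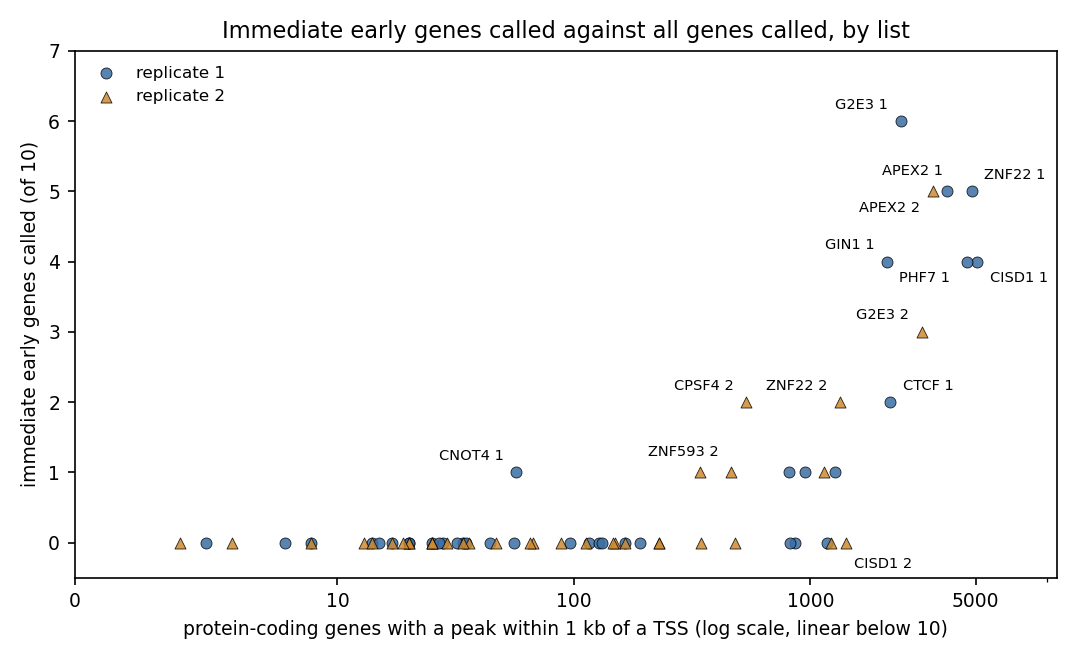
Immediate early genes called (of 10) against protein-coding genes called in each of the 72 lists, on a log axis that is linear below 10. Circles are replicate 1 and triangles replicate 2. G2E3 replicate 1 holds 6 genes, and most lists with any lie to the right of 1000, while CNOT4 replicate 1 holds EGR1 with 57 genes called.

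Whether a gene called in one replicate of a ZFP tended to be called in the other was tested over the 36 ZFPs with a one-sided Fisher's exact test per gene, adjusted by Benjamini-Hochberg over the 6148 protein-coding genes with a call in each replicate number. The test passed the adjusted threshold of 0.05 for 3.24% of those genes, the largest unadjusted p among them being 0.00159. It passed for 0 of the 6 immediate early genes with a call in each replicate number. With so few calls, 5 of the 6 could not have passed, since the smallest exact p that their numbers of calls allow is 0.00476 for FOS and JUND, 0.00952 for IER5 and ATF3 and 0.111 for IER2, and the test says nothing on those genes. Only EGR1, with a smallest exact p of 0.000334, could have. JUND was called in replicate 1 of 3 ZFPs, in replicate 2 of 2 and in both of 2, the most agreement that its calls allow (Fisher's exact test, p = 0.00476, adjusted p = 0.0804). EGR1 was called in replicate 1 of 9 ZFPs, in replicate 2 of 5 and in both of 4 (exact p = 0.00936, adjusted p = 0.111), and IER5 in 4, 2 and 2, again the most agreement allowed (exact p = 0.00952, adjusted p = 0.111). The adjusted p was 0.405 for FOS, 0.478 for ATF3 and 1.0 for IER2 by the same exact test. FOSB, JUN and MYC had no replicate 2 call and could not be tested. List length enters this test and was not separated from it. The test also treats the ZFPs as separate units although their lists shared mock IP libraries.

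The genes with the most similar pattern of calls to EGR1 were KAT8, which codes for a histone acetyltransferase, and PCNA, the DNA polymerase clamp. Each was called in 12 lists and shared 11 with the 14 lists of EGR1, a Jaccard index of 0.733 over 72 lists. They were picked as the highest among all protein-coding genes that share no peak with EGR1, and no background of the index was computed. Most of the 14 lists were among the 15 with more than 1000 genes called, and the part of list length in this likeness was not tested. EGR1 is the only one of the 10 genes called in 10 or more lists, the minimum set for this comparison.

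A wider set of 45 other immediate early genes was compiled from general knowledge and not from a published list. Its counts depend on its membership, and it was chosen with earlier results of these data known. In this wider set, 38 genes were called in at least 1 list (84.4%) and 18 in both replicates of at least 1 ZFP (40.0%). The corresponding numbers were 9 and 5 for the 10 genes, and the shares were 55.8% and 16.7% for all protein-coding genes. The median number of ZFPs was 3 per gene in the wider set, 4 in the 10 genes and 1 over all genes. PER1, a circadian clock repressor, was called in 25 lists of 15 ZFPs and in both replicates of 10, more than EGR1. GADD45A, a stress sensor of the DNA damage response, was called in 20 lists of 13 ZFPs, KLF10 in 13 of 9 and MAFG in 12 of 8. No peak was found at DUSP2, EGR4, FOSL1, ID3, IER3, MCL1 or PPP1R15A.

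Promoter letters were counted in RefSeq promoters, from 250 bp before to 50 bp after each start, for 15345 protein-coding genes. The table held 9 of the 10 genes, and that of ATF3 was the distal start 43354 bp upstream of the main TSS. A CArG box was found in 1.22% of promoters, among them EGR1. The full CRE was in 2.64%, among them JUND, and the EGR site in 12.8%, among them EGR1. The window leaves out sites further upstream. These include the CArG boxes that begin 314 bp upstream in FOS and 274 bp upstream in FOSB. The full CRE of FOSB, at 325 bp upstream, and EGR sites of FOSB and JUND are also left out. The CRE core was in 29.7% of promoters and in 7 of the 9. The GC box GGGCGG was in 59.2% and in 6, the ETS core in 23.1% and in 3, and the TATA box TATAAA in 9.63% and in FOS, FOSB and JUNB. The main TSSs of ATF3 and MYC were not among these promoters, and a TATA box begins 32 and 29 bp upstream of them. The AP-1 site TGANTCA was in 5.74% and in none of the 9. All letters were searched on both strands. The GC content of the promoters had a median of 67.3% in the 9 genes and 63.0% over all.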

How the data were processed

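Cut&Run peak lists of 36 ZFPs in HEK293T cells with 2 replicates each were used. Samples were mapped to ZFP and replicate from their titles, and mock IP lists were not used here. According to the methods and the submitters' processing notes, reads were trimmed with Trimmomatic 0.36, aligned to hg38 with Bowtie2 2.3.5.1 (fragments of 10 to 700 bp), cleared of PCR duplicates with Picard 0.1.8 and used to call peaks with MACS2 2.2.7.1 list by list against a V5 mock IP from the same batch, at a q threshold of 0.05. In the deposited lists each peak has a fold, its summit signal over the background estimated with the mock IP as control. The authors also gave −log10 p, −log10 q and a score made from q. Totals per library and batches being not given in the sources used here, yield was judged by list length alone (15 to 8702 peaks).

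All further values were computed with Python 3.11.15, numpy 2.4.6, scipy 1.17.1 and pandas 2.3.3, and plots with matplotlib 3.10.9. TSSs were all transcript starts of protein-coding genes in GENCODE 44, and the main TSS was that of the MANE Select or Ensembl canonical transcript. Folds were ranked within each list and never tested between lists. Named were the 10 genes, the ZFPs that called them, the 2 genes most like any gene called in at least 10 lists, and up to 4 genes of each wider list by number of lists. The 10 genes and the wider lists were chosen with earlier results of these data known. On simulated data, bedtools gave the same calls for 1500 of 1500 peaks. Planted agreement of replicates was recovered for 200 of 200 genes, and 3 of 4800 genes with independent replicates were called. That simulation gave all ZFPs the same call rate, and every call of a planted gene was in both replicates. It therefore does not show how the test behaves with lists of unequal length or with few, partly repeated calls. Alternatives were other distances, the summit or the main TSS only, stricter q, a fold of at least 5, overlapping peaks, and each replicate or some ZFPs left out.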

Additional observations from a re-analysis of the deposited data

How the results depend on the processing

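The number of genes called in at least 1 list, 9, stayed between 7 and 9 under the other alternatives and was 6 to 9 when a replicate was left out. Stricter settings moved the calls in both replicates. With q at most 0.001, genes fell from 5 to 1, ZFPs from 4 to 1 and pairs from 10 to 1, and with a fold of at least 5 they fell to 2, 1 and 2. Except with the main TSS only, the shares of all protein-coding genes under the alternatives were not computed. These changes therefore have no background and cannot be read as particular to the 10 genes. The median fold of 4.96 was 5.42 with q at most 0.01, 5.79 with q at most 0.001 and 5.76 with a fold of at least 5, which removed low peaks by construction, and 4.82 to 5.42 with a replicate left out (chosen after seeing the data). The median summit from the nearest TSS, -168.5 bp, was -181.5 within 500 bp, -140 within 2 kb, and -157 with the main TSS only, with q at most 0.001 or with a fold of at least 5. The cause was not tested. The count of genes past the adjusted threshold in Fisher's exact test was 0 in the 11 settings run. As 5 of 6 genes could not pass in the first place, this is no sign of stability. The adjusted p ranged from 0.0804 to 0.584 for JUND, 0.0719 to 0.899 for EGR1 and 0.0977 to 1.0 for IER5. JUND could not be tested with q at most 0.001 or with a fold of at least 5, so its range covers the other settings only. EGR1 was called for 5 (without replicate 1) to 11 ZFPs and had the most of the 10 genes in 11 of 11 settings, and 82 of 110 counts of ZFPs per gene were within 1.5 times the main count. The exact test already pairs the lists of each ZFP. Beyond it, no paired analysis was possible because no groups of samples are compared, so that no fit exists to which a replicate block could be added.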

Other observations

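The genes for 16 factors and kinases that act upstream of immediate early genes also had peaks. This list too was compiled from general knowledge, with earlier results of these data known. At least 1 list called 15 of the 16 (93.8%), and 5 (31.2%) were called in both replicates of at least 1 ZFP, where the shares of all protein-coding genes were 55.8% and 16.7%. ELK4, an ETS partner of SRF, was called in 15 lists of 12 ZFPs and in both replicates of APEX2, CTCF and G2E3. ATF2, a CREB-family factor, was called in 8 lists of 7 ZFPs, and RPS6KA5, a kinase of CREB and histone H3, in 8 lists of 6. SRF itself was called in 7 lists of 5 ZFPs, with both replicates of CTCF and G2E3. ATF1 had no peak. Of 65 calls of these genes in a list, 55 (84.6%) came from lists with over 1000 genes called, which held 82.1% of the calls of all protein-coding genes.

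Beyond the promoters, 36 peaks lay from 1 to 10 kb from a TSS of the 10 genes. JUNB had 10, IER2 had 9, JUN had 5, EGR1 and ATF3 had 3 each, and FOS, FOSB and IER5 had 2 each. JUND and MYC had 0. Peaks at this distance were not counted over all protein-coding genes, so these numbers have no background.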
